A study of Mus musculus with 14 samples.

Results

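The cluster of miR-183, miR-96 and miR-182 yields 6 mature miRNAs, a 5p and a 3p arm from each of its hairpins, and all 6 were present in each of the 14 libraries, among 1123 mature miRNAs in all. They were taken by name: every arm of miR-183, miR-96 and miR-182. The libraries hold small RNA from dissociated mouse dorsal root ganglia (DRG), the ganglia in which the cell bodies of sensory neurons lie. They come from 2 inbred strains, the laboratory strain C57BL/6 and the wild-derived strain CAST/Ei, with no transgene or mutant allele named in the labels. Naive ganglia had no treatment (5 C57BL/6 and 3 CAST/Ei libraries), and injured ganglia came after a crush of the left sciatic nerve lasting 30 s (3 libraries of each strain, males of 8 to 10 weeks). The sources used here give neither the age and sex of the naive animals nor the time after the crush nor which ganglia were taken, so the match between naive and injured animals could not be checked.

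The cluster is transcribed as a shared precursor, and each hairpin cut from it gives a duplex of which mostly the 5p arm is loaded into Argonaute, where bases 2 to 8 (the seed) pair with target messenger RNAs. It is known as a cluster of sensory organs, with high levels in hair cells, photoreceptors and somatosensory neurons, and changes in the miR-96 seed cause hearing loss. In DRG it has been studied for its part in pain sensitivity and in the regulation of calcium channel subunits.

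The mature sequences are shown because the seeds decide which members can share targets and the arms are compared with each other below. They are given 5′ to 3′ as RefSeq has them (GRCm38.p6), with the seed in capitals.
miR-183-5p: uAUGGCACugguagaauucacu
miR-96-5p: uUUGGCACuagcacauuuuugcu
miR-182-5p: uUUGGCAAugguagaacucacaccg
miR-183-3p: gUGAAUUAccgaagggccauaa
miR-96-3p: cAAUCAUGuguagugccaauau
miR-182-3p: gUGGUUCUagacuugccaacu

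The 3 seeds of the 5p arms are near copies of each other. With positions counted from 1 at the 5′ end and the first-named miRNA's base written first, miR-96-5p and miR-182-5p are the same over their first 7 bases and differ within bases 1 to 8 by C8A. miR-183-5p differs from miR-96-5p there by A2U, and from miR-182-5p by A2U and C8A. Past the seed the likeness runs the other way. miR-183-5p and miR-182-5p have 18 of 22 aligned bases in common, against 13 of 22 for miR-183-5p and miR-96-5p and 12 of 23 for miR-96-5p and miR-182-5p. Among the 918 miRNAs of the files that matched the RefSeq table, no other has the seed of any of the 6 arms. In that table miR-1271-5p has the seed of miR-96-5p, and miR-3475-5p that of miR-96-3p.

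In GRCm38 the 3 hairpins lie on the minus strand of chromosome 6 within 3820 bases (chr6:30165918-30169737). Mir183 (chr6:30169668-30169737) and Mir96 (chr6:30169446-30169551) are 116 bases apart, and Mir182 (chr6:30165918-30165992) lies 3453 bases beyond Mir96. In GENCODE vM21 none of the hairpins overlaps another gene, so no host gene is annotated there. The nearest annotated gene is the lincRNA Rncr4, on the opposite strand and 3155 bases away. Nrf1 on the plus strand (12459 bases) and Ube2h on the minus strand (41551 bases) are the nearest protein-coding genes on each side. The hairpins, with both mature arms in capitals, show the duplexes behind the arm ratios.
miR-183 hairpin: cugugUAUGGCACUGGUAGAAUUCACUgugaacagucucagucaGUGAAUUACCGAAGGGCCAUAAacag
miR-96 hairpin: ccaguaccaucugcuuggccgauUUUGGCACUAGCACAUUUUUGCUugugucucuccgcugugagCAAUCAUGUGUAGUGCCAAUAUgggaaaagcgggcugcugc
miR-182 hairpin: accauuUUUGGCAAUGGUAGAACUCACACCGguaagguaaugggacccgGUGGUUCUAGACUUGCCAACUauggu

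The libraries hold 4007706 to 15642360 reads, and levels are given in CPM (read counts relative to library sizes that the authors scaled), on which 1 read is worth 0.0674 to 0.253 CPM. Of the naive C57BL/6 libraries, numbers 4 and 5 differed from the other 12 libraries of the study in their markers of cell type. Their summed levels of 20 neuronal miRNAs were 403751 and 231799 CPM, against 102771 to 155451 CPM elsewhere. miR-218-5p alone made most of that gap, with 260520 and 81351 CPM there and 3479 to 17984 CPM elsewhere, and the other 19 summed to 143231 and 150449 CPM against 97964 to 137996 CPM. The 9 miRNAs of myelinating glia summed there to 17301 and 11120 CPM (28833 to 57523 CPM elsewhere), and miR-122-5p, the liver miRNA, stood at 661 and 369 CPM (8.63 to 39.8 CPM elsewhere). Values without both are given beside many of the results that they moved, though not beside all.

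The cluster took 1.79% to 3.26% of all reads (median 2.18%), so its transcripts were abundant in every library. For C57BL/6 its share was 2.57% ± 0.578 (SD, n = 5) in the naive group and 2.10% ± 0.143 (n = 3) in the injured group. For CAST/Ei the shares were 2.17% ± 0.139 and 2.0% ± 0.105 (n = 3 each). The C57BL/6 naive libraries ran from 1.79% to 3.26% and so held every library of the other groups within their range. In mean level over the 14 libraries miR-183-5p came 27th and miR-182-5p 30th of the 1123 miRNAs, miR-96-5p 58th, miR-183-3p 149th, miR-96-3p 378th and miR-182-3p 474th. All 6 passed the filter on low values (at least 5 CPM in at least 3 libraries), with 38 reads or more behind every value.

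The order of the arms was nearly fixed. In all 14 libraries both miR-183-5p and miR-182-5p stood above miR-96-5p, followed by miR-183-3p, miR-96-3p and miR-182-3p. Only the first place varied. miR-183-5p led in 10 libraries and miR-182-5p in 4, namely numbers 1, 2 and 3 of naive C57BL/6 and number 2 of naive CAST/Ei. Over the 14 libraries the means were 9800 ± 3302 CPM for miR-183-5p and 9469 ± 3232 CPM for miR-182-5p (SD). These SDs run across the groups and do not compare the arms within a library, for which the ratio is given below. Whether 1 of the 2 arms leads was not tested. The mature arms are 21 to 25 bases long and each read counts 1 molecule of an arm, so no correction for length was made. How well each sequence was captured in library preparation was not measured.

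**Figure D1:**
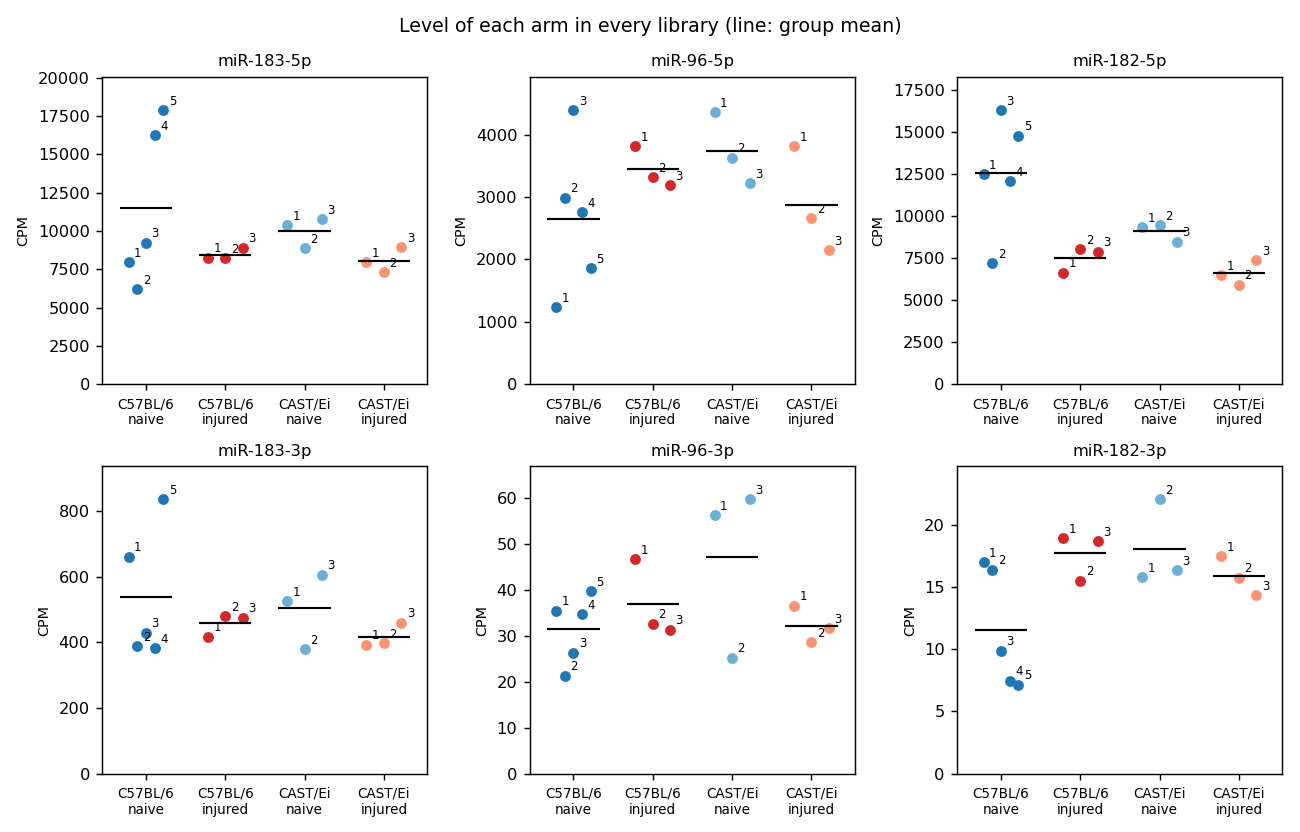
Level in CPM (vertical axes, linear, each from 0) of the 3 arms of each kind in every library, with a point for each library, its replicate number beside it and a line at the group mean. The 5 C57BL/6 naive libraries are spread more widely than the other groups for miR-183-5p, miR-96-5p and miR-182-5p. For miR-182-5p the 3 CAST/Ei injured libraries lie below the 3 CAST/Ei naive ones in CPM, but not all do as shares of all reads.

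miR-182-5p, whose seed differs from that of miR-96-5p in its last base only, was the arm with the lowest p for injury. It stood at 12505, 7198, 16316, 12096 and 14797 CPM in C57BL/6 naive libraries 1 to 5 and at 6641, 8032 and 7880.4 CPM in the C57BL/6 injured libraries. In CAST/Ei it stood at 9343, 9451 and 8489.6 CPM in the naive and at 6493, 5925 and 7399.8 CPM in the injured libraries. In C57BL/6 4 of the 5 naive libraries lay above all 3 injured ones, and naive library 2 lay within their range. In CAST/Ei the groups did not overlap in CPM, as was so for 26.6% of the 638 miRNAs tested. The CPM totals of these libraries did not overlap either, at 970957 to 1143936 naive and 867581 to 918325 injured. As shares of all reads the groups overlapped, with naive library 3 (49375 of 6653095 reads) below injured library 3 (109827 of 13629728 reads).

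In C57BL/6 the log2 change of miR-182-5p was −0.70 ± 0.25 (SE; 95% interval −1.22 to −0.17, 5 against 3 libraries), with a limma p of 0.0127 and an adjusted p of 0.126, which does not pass. In all, 0 of the 6 arms passed the adjusted threshold of 0.05 in this comparison, where 3.13% of all tested miRNAs did, and 1 of the 6 had an unadjusted p under 0.05, against 23.7% of all. edgeR on the recovered reads also called none (miR-182-5p adjusted p = 0.055) where it called 5.02% of all. DESeq2 called miR-182-5p alone, with a log2 change of −0.83 and an adjusted p of 0.0233, in a fit that called 12.4% of all miRNAs. Over the 30 alternative settings the change stayed between −0.88 and −0.55, with adjusted p-values from 0.0233 to 0.329.

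A single library decided the limma call. Without C57BL/6 naive library 2, the one with 7198 CPM, the log2 change was −0.88 and the limma adjusted p was 0.0327, with 3.29% of all miRNAs called. Without C57BL/6 naive libraries 4 and 5, which stood apart, it was −0.60 (adjusted p = 0.207). DESeq2 without C57BL/6 injured library 1, the library whose reads were recovered with least certainty, gave −0.73 (adjusted p = 0.154).

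In CAST/Ei the change of miR-182-5p was −0.47 ± 0.28 (SE; interval −1.05 to 0.12, 3 against 3, limma adjusted p = 0.746). None of the 6 arms passed in CAST/Ei with limma, edgeR or DESeq2, which called 1.10%, 1.25% and 2.36% of all miRNAs. None of the 6 had an unadjusted p under 0.05 there, against 6.43% of all. Averaged over the strains it was −0.58 ± 0.18 (SE; interval −0.97 to −0.19, limma adjusted p = 0.0956), equal to 0.669 of the naive level. Here too none of the 6 passed with limma (4.23% of all did) or edgeR (4.08% of all did). Of the 6 arms 1, miR-182-5p, had an unadjusted p under 0.05, against 15.8% of all. DESeq2 called miR-182-5p (−0.60, adjusted p = 0.0419, 7.55% of all called), but not without C57BL/6 injured library 1 (−0.55, adjusted p = 0.126). limma called it without C57BL/6 naive library 2 (−0.67, adjusted p = 0.0185, 5.17% called), and without naive libraries 4 and 5 it gave −0.53 (adjusted p = 0.0761). The difference between the strains in this change was 0.23 (interval −0.56 to 1.02, limma adjusted p = 0.799).

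**Figure D2:**
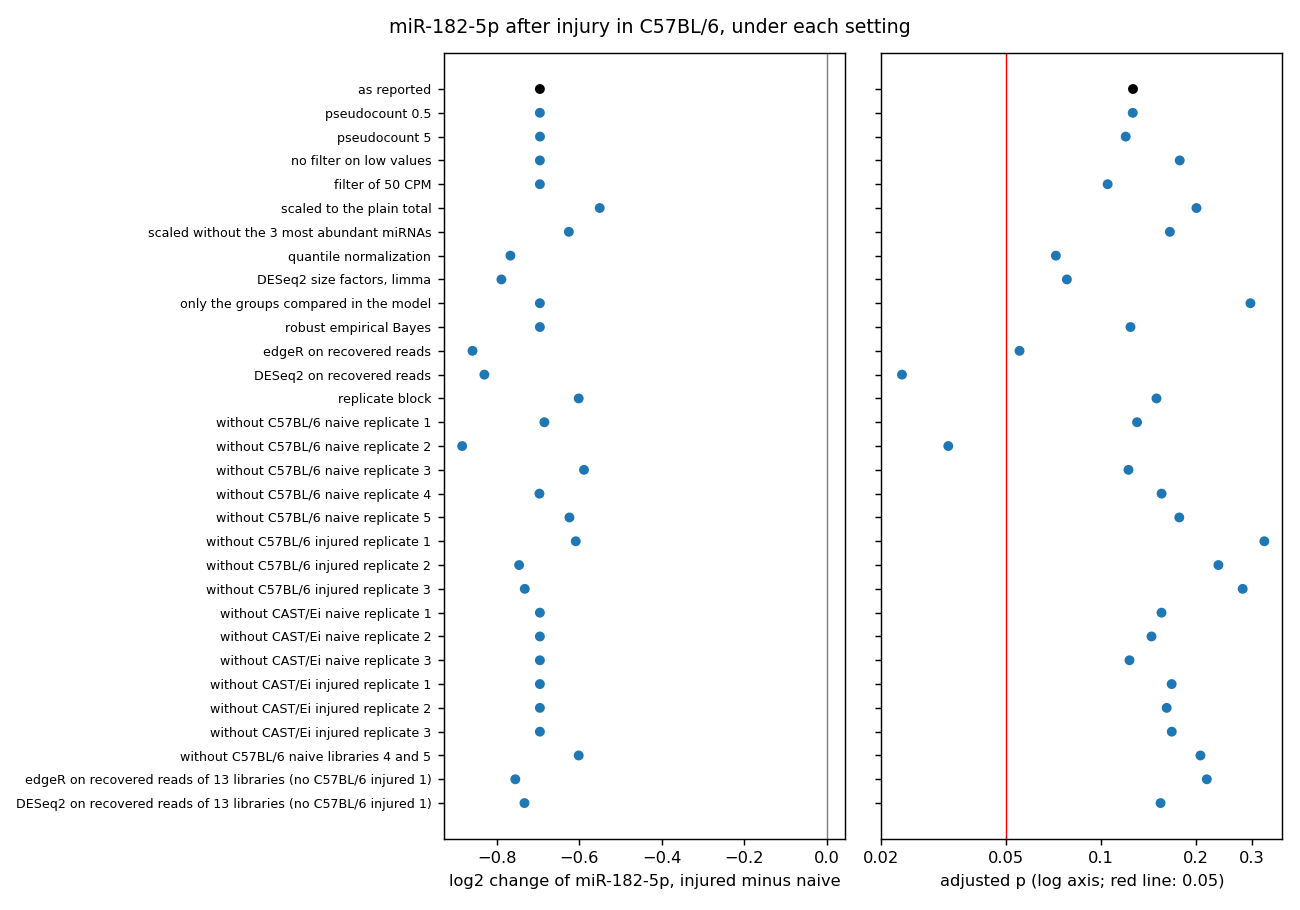
Log2 change of miR-182-5p after injury in C57BL/6 (left axis, injured minus naive) and its adjusted p (right axis, log scale, red line at 0.05) under the reported setting (black) and each alternative (blue). All changes lie between −0.88 and −0.55, and the adjusted p lies left of the line with DESeq2 and without C57BL/6 naive library 2.

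The summed level of the 20 neuronal miRNAs was also lower in injured ganglia. It was 123812 to 403751 CPM in C57BL/6 naive and 104216 to 119112 CPM in C57BL/6 injured libraries. In CAST/Ei it was 132413 to 155451 CPM against 102771 to 111636 CPM. In CPM there was no overlap in either strain, and none of the 20 was at 0 in any library. Of single miRNAs, 26.6% did not overlap in CAST/Ei. Relative to the CPM totals the CAST/Ei sums did overlap. Naive library 3 (132413 of 1143936 CPM) then lay below all injured libraries, of which library 2 was lowest (102771 of 867581 CPM). Without miR-138-5p the groups overlapped in both strains. Without miR-138-5p and miR-218-5p the other 18 summed to 32369 to 47719 CPM in naive and 35754 to 41512 CPM in injured C57BL/6 ganglia, and to 27676 to 50184 against 32953 to 36698 CPM in CAST/Ei, with overlap in both (members removed after their values were seen). The part of neuron content in the miR-182-5p difference was not tested, and in bulk ganglia fewer neurons and less of a miRNA in each neuron cannot be told apart. The single members of the neuronal list went either way. In C57BL/6 1 of 20 rose (miR-135a-5p, log2 1.24, limma adjusted p = 0.0172) and none fell, with 9 of 20 changes below 0 and a median of 0.08, beside a median of 0.12 over all 638 miRNAs. In CAST/Ei none passed, 13 of 20 lay below 0 and the median was −0.26, beside −0.09 over all.

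Other neuronal miRNAs of high level give the scale. miR-138-5p, a neuronal miRNA, had log2 changes of −0.58 ± 0.19 (SE, limma adjusted p = 0.0953) in C57BL/6 and −0.39 ± 0.21 (adjusted p = 0.676) in CAST/Ei, near those of miR-182-5p in size. miR-124-3p, the brain's classical neuronal miRNA, had 0.18 ± 0.46 and 0.24 ± 0.52 (adjusted p = 0.83 and 0.938). Of 15 miRNAs studied in DRG pain models, 1 rose in each strain and none fell. It was miR-21a-5p, a miRNA known to rise in injured sensory neurons, with log2 changes of 1.76 and 1.57 (limma adjusted p = 0.0028 and 0.0209). The median over these 15 was −0.09 in C57BL/6 and −0.15 in CAST/Ei.

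miR-183-5p, the other arm of first rank, stood at 7974, 6212, 9244, 16257 and 17884 CPM in C57BL/6 naive libraries 1 to 5, and at 8264, 8213.5 and 8909.7 CPM in the injured ones. CAST/Ei naive libraries had 10393, 8859 and 10776 CPM, and CAST/Ei injured libraries 7964, 7307 and 8945 CPM. C57BL/6 naive libraries 4 and 5, which stood apart, held the highest values, and the injured libraries lay within the range of the naive ones. The log2 change was −0.32 ± 0.30 (SE, limma adjusted p = 0.538) in C57BL/6 and −0.31 ± 0.34 (adjusted p = 0.885) in CAST/Ei. Without libraries 4 and 5 the change in C57BL/6 turned to 0.13 (adjusted p = 0.68), so its direction rested on these libraries.

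miR-96-5p, the member whose seed is mutated in hereditary hearing loss, varied most among the 5p arms, 3.56-fold from the lowest to the highest library. It stood at 1232, 2990.4, 4392, 2757 and 1860 CPM in C57BL/6 naive libraries 1 to 5 and at 3817, 3314 and 3192 CPM in the injured ones. In CAST/Ei it stood at 4358, 3630.2 and 3224 CPM in naive and at 3811, 2664 and 2148 CPM in injured libraries. In C57BL/6 4 of 5 naive libraries lay below all injured ones and naive library 3 above them, while in CAST/Ei the groups overlapped with 2 of 3 injured libraries below all naive ones.

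The fitted changes of miR-96-5p had opposite signs, with 0.50 ± 0.34 (SE, limma adjusted p = 0.389) in C57BL/6 and −0.41 ± 0.38 (adjusted p = 0.868) in CAST/Ei. In C57BL/6 it was 0.26 without naive library 1 and 0.44 without naive libraries 4 and 5, and in CAST/Ei it was −0.63 without injured library 1 and −0.22 without injured library 3. The difference between them was −0.91 (interval −1.99 to 0.17, limma adjusted p = 0.53), which does not pass. The median change of all 638 miRNAs also had opposite signs, with 0.12 in C57BL/6 and −0.09 in CAST/Ei. The summed glial list was 11120 to 44419 CPM in C57BL/6 naive and 43363 to 55624 CPM in C57BL/6 injured libraries. In CAST/Ei it was 45546 to 57523 CPM naive against 38712 to 41944 CPM injured, the same opposite directions. Relative to the CPM totals the CAST/Ei groups overlapped in this list (50065 of 1132722 CPM in naive library 1, 41565 of 867581 CPM in injured library 2). Its part in miR-96-5p was not tested.

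The 3p arms were scarcer than their 5p partners and are the passenger strands of these duplexes. For C57BL/6, miR-183-3p stood at 539 ± 201 CPM (SD, n = 5) before and 457 ± 34.9 CPM (n = 3) after injury, and for CAST/Ei at 504 ± 115 and 417 ± 37.7 CPM (n = 3 each). In the same order miR-96-3p stood at 31.5 ± 7.48, 36.9 ± 8.46, 47.0 ± 19.0 and 32.2 ± 4.0 CPM. Their injured groups lay within or across the naive range in both strains, with limma adjusted p-values of 0.679 or higher.

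miR-182-3p did not follow its 5p partner in C57BL/6. It stood at 17.0, 16.4, 9.88, 7.47 and 7.15 CPM in C57BL/6 naive libraries 1 to 5, from 38 to 202 reads, and at 18.9, 15.5 and 18.7 CPM in the injured ones. The 3 naive libraries below 10 CPM included both that stood apart. In CAST/Ei naive libraries had 15.8, 22.02 and 16.3 CPM and injured ones 17.4, 15.7 and 14.4 CPM, and the groups overlapped.

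The log2 change of miR-182-3p was 0.65 ± 0.31 (SE, limma adjusted p = 0.208) in C57BL/6 and −0.17 ± 0.34 (adjusted p = 0.938) in CAST/Ei. With naive libraries 4 and 5 left out the C57BL/6 change was 0.31 (limma adjusted p = 0.543). The strain difference in this change was −0.82 (interval −1.80 to 0.16, limma adjusted p = 0.531), or −0.48 without these libraries, and that of miR-96-3p was −0.67 (interval −1.68 to 0.33, adjusted p = 0.561). None of the 6 arms passed for a strain difference in the injury effect with limma, edgeR or DESeq2. Over all miRNAs limma called 0% there, edgeR 1 miRNA (0.157%) and DESeq2 9 (1.42%). None of the 6 had an unadjusted limma p under 0.05, which 52 miRNAs (8.15%) had.

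**Figure D3:**
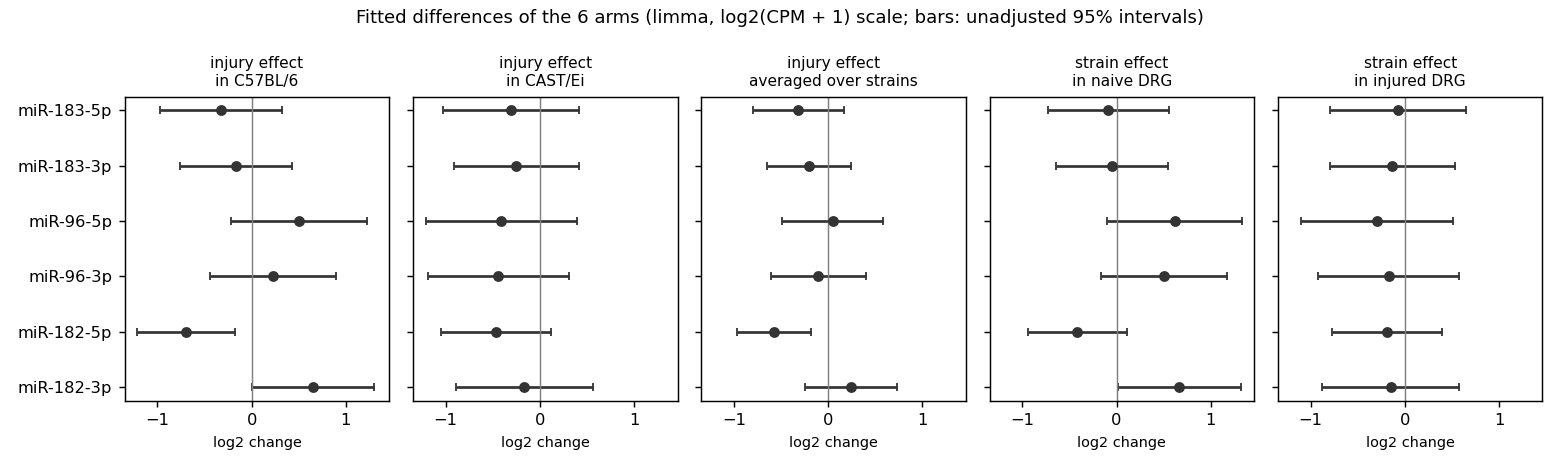
Fitted log2 differences of the 6 arms (points) with unadjusted 95% intervals from limma, for 3 injury comparisons (injured minus naive) and 2 strain comparisons (CAST/Ei minus C57BL/6). The interval of miR-182-5p lies below 0 in C57BL/6 and in the average over strains, and that of miR-182-3p lies above 0 for the naive strain comparison, although none passed after adjustment.

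The question of whether the strains differ in the cluster was examined in naive and in injured ganglia. In naive ganglia none of the 6 arms passed with limma, edgeR or DESeq2, which called 11.1%, 12.1% and 18.6% of all miRNAs. An unadjusted p under 0.05 was found for 1 of the 6 and for 31.8% of all. That arm was miR-182-3p, with a log2 difference (CAST/Ei minus C57BL/6) of 0.67 ± 0.31 (SE, limma adjusted p = 0.149). By limma it was 0.62 ± 0.34 (adjusted p = 0.228) for miR-96-5p, 0.50 ± 0.31 (adjusted p = 0.287) for miR-96-3p and −0.42 ± 0.25 (adjusted p = 0.265) for miR-182-5p. With the replicate number as a block, a fit that leaves out C57BL/6 naive libraries 4 and 5 because they have no partner, again none of the 6 passed, while 17.4% of all miRNAs did. Without these libraries and without the block the difference of miR-182-3p was 0.33 (limma adjusted p = 0.412). For miR-183-5p the difference was −0.09 over all libraries (limma adjusted p = 0.87). Its sign was not stable, with −0.34 to 0.37 over the 30 alternative settings.

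In injured ganglia none of the 6 passed with limma, edgeR or DESeq2 (3.29%, 3.29% and 3.93% of all did). None had an unadjusted p under 0.05, against 8.78% of all, and the lowest adjusted p was 0.981, for miR-96-5p (log2 −0.30, interval −1.10 to 0.51). Averaged over injury states none of the 6 passed by these tools (7.99%, 7.68% and 12.4% of all did). None had an unadjusted p under 0.05, against 22.1% of all, and the lowest adjusted p was 0.355, for miR-182-5p (−0.30, interval −0.70 to 0.09). The naive and injured strain comparisons share no library, whereas each injury comparison shares its naive or injured libraries with a strain comparison.

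The 5p arm exceeded the 3p arm for every hairpin in every library, but by very different factors. For miR-183 the ratio was 12.1 to 42.5 (median 19.6), for miR-96 34.7 to 167 (median 87.6) and for miR-182 351 to 2070.0 (median 517). Put as shares, the 3p arm made up 2.30% to 7.65% of the reads of miR-183, 0.596% to 2.80% of those of miR-96 and 0.0483% to 0.284% of those of miR-182. The miR-182 hairpin was thus the most one-sided of the 3 in all 14 libraries, its range overlapping with neither of the others.

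The miR-182 arm ratio differed most between groups. It was 736, 439.9, 1651, 1620.2 and 2070.0 in C57BL/6 naive libraries 1 to 5 and 351, 518 and 422 in the injured ones. CAST/Ei naive libraries had 592, 429 and 519.7, and injured ones 372, 376 and 516. In C57BL/6 4 of the 5 naive libraries lay above all injured ones, with naive library 2 again among them, and the ranges of the other 3 groups overlapped. The 3p share in C57BL/6 naive library 5 was 0.0483% (exact 95% interval 0.0342% to 0.0663%), and in library 2 it was 0.227% (0.197% to 0.260%), so these libraries differ by more than counting error.

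On the log2 scale the miR-182 arm ratio was 10.13 ± 0.94 (SD, n = 5) before and 8.73 ± 0.28 (n = 3) after injury for C57BL/6, and 8.99 ± 0.23 and 8.70 ± 0.27 (n = 3 each) for CAST/Ei. The injury difference in C57BL/6 was −1.40 (exact permutation p = 0.0536, smallest possible 0.0179). In CAST/Ei it was −0.29 (exact permutation p = 0.2, smallest possible 0.1). Averaged over strains it was −0.85 (exact permutation p = 0.0232 within strains, adjusted p = 0.528). P-values were two-sided and adjusted over 36 ratio tests, and none of the 36 passed. Those of 3 against 3 libraries could not pass, since their smallest possible p was 0.1. Without C57BL/6 naive libraries 4 and 5 the differences were −0.93 in C57BL/6 (exact p = 0.2) and −0.61 on average (exact p = 0.055).

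The arm ratios of the other hairpins had group means closer together. For miR-183 the log2 ratio was 4.37 ± 0.67 before (n = 5) and 4.21 ± 0.11 after injury (n = 3) for C57BL/6, and 4.33 ± 0.20 and 4.28 ± 0.068 (n = 3 each) for CAST/Ei. In the same order it was 6.30 ± 0.98, 6.56 ± 0.18, 6.4 ± 0.71 and 6.44 ± 0.32 for miR-96. The injury differences of these 2 hairpins were −0.16 and 0.27 in C57BL/6 and −0.06 and 0.04 in CAST/Ei, all within the SD of the naive groups (exact permutation p of 0.661 or higher).

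**Figure D4:**
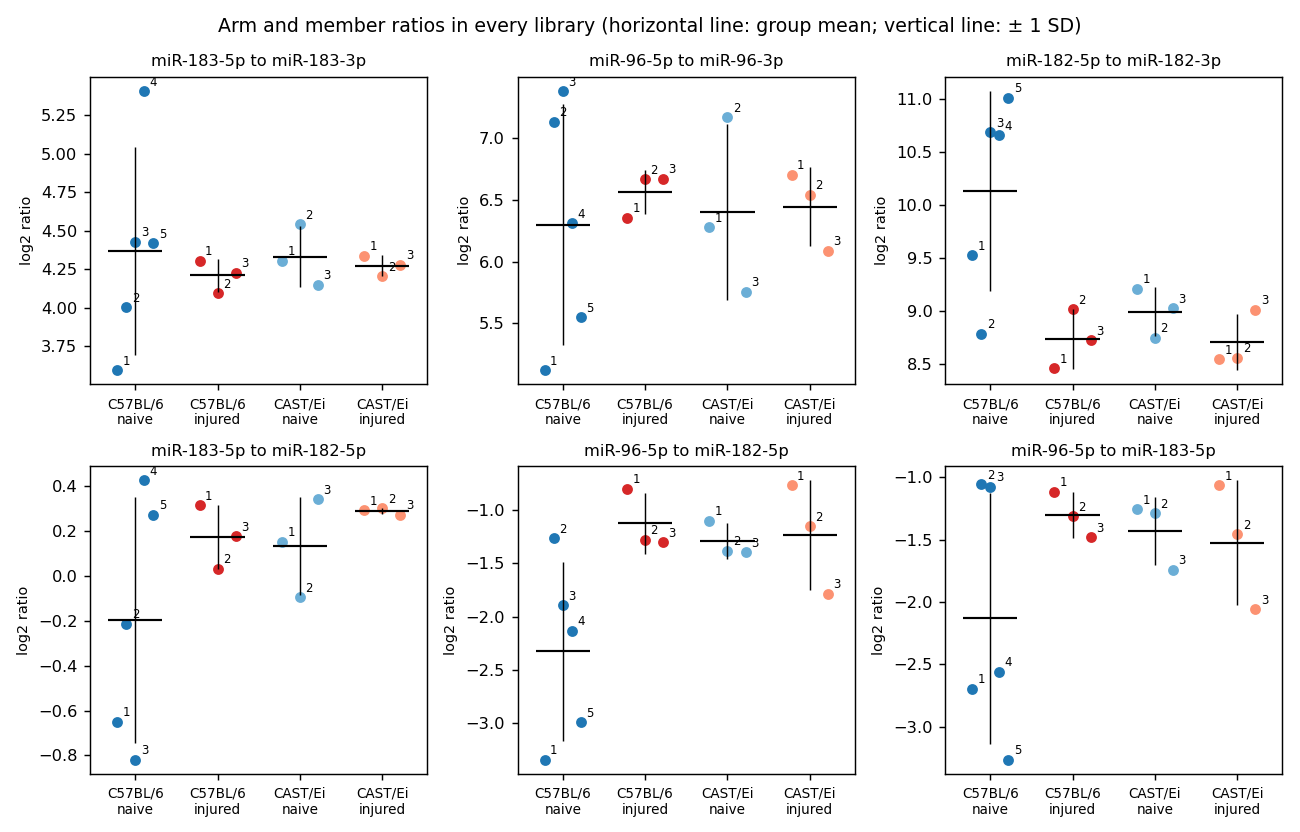
Log2 ratio (vertical axes, each with its own range) of 5p to 3p arm for each hairpin (top row) and between the 5p arms (bottom row) in every library, with replicate numbers, the group mean (horizontal line) and 1 SD (vertical line). For miR-182-5p to miR-182-3p 4 of 5 C57BL/6 naive libraries lie above the C57BL/6 injured libraries, and for miR-183-5p to miR-182-5p the 3 CAST/Ei injured libraries lie almost at the same height, at 0.27 to 0.30.

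Ratios between members show whether the arms of the shared transcript kept step. The log2 ratio of miR-183-5p to miR-182-5p was −0.20 ± 0.55 (SD, n = 5) before and 0.17 ± 0.14 (n = 3) after injury for C57BL/6, and 0.13 ± 0.22 and 0.29 ± 0.015 (n = 3 each) for CAST/Ei. The injury differences were 0.37 (exact permutation p = 0.304) and 0.16 (exact permutation p = 0.4), positive in both strains, and 0.26 on average (exact permutation p = 0.16, adjusted p = 0.716). Without C57BL/6 naive libraries 4 and 5 they were 0.74 in C57BL/6 (exact p = 0.1, the smallest possible) and 0.45 on average (exact permutation p = 0.02, adjusted p = 0.36). With C57BL/6 naive library 3 left out the difference in C57BL/6 was 0.22, and without CAST/Ei naive library 2 that in CAST/Ei was 0.04, so the size rested on single libraries.

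The ratio of miR-96-5p to the other 5p arms had its low values in C57BL/6 naive ganglia. miR-96-5p stood at 0.0985, 0.415, 0.269, 0.228 and 0.126 of miR-182-5p in C57BL/6 naive libraries 1 to 5, and at 0.575, 0.413 and 0.405 in the injured ones. In CAST/Ei it was 0.466, 0.384 and 0.380 in naive and 0.587, 0.45 and 0.29 in injured libraries. Again 4 of the 5 C57BL/6 naive libraries lay below all C57BL/6 injured ones, with library 2 among them. The log2 difference was 1.2 for injury in C57BL/6 (exact permutation p = 0.0893), 0.06 in CAST/Ei (exact permutation p = 1) and 1.03 for CAST/Ei minus C57BL/6 in naive ganglia (exact permutation p = 0.0893), with an adjusted p of at least 0.528 each. With naive libraries 4 and 5 left out the first was 1.04 (exact permutation p = 0.3) and the naive strain difference 0.88 (exact permutation p = 0.3).

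miR-96-5p to miR-183-5p gave log2 ratios of −2.13 ± 1.01 (SD, n = 5), −1.30 ± 0.18, −1.43 ± 0.27 and −1.53 ± 0.50 (n = 3 each), with injury differences of 0.83 (exact permutation p = 0.321) and −0.10 (exact permutation p = 0.8). The first was 0.31 without C57BL/6 naive libraries 4 and 5. The naive strain comparison used the same C57BL/6 naive libraries as the injury comparison in C57BL/6. Its differences were −1.14 for the miR-182 arm ratio (exact permutation p = 0.0714), 0.33 for miR-183-5p to miR-182-5p (exact p = 0.375) and 0.70 for miR-96-5p to miR-183-5p (exact p = 0.357). Without libraries 4 and 5 they were −0.67, 0.70 and 0.18 (exact permutation p of 0.1 or higher, the smallest possible). Averaged over injury states none of the 6 ratios passed either. In injured ganglia, with 3 against 3 libraries, the smallest possible p was 0.1, so no ratio could pass. The lowest exact permutation p-values were 0.4 for injured ganglia, for miR-183-5p to miR-182-5p (0.12), and 0.103 for the average, for the miR-182 arm ratio (−0.59).

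**Figure D5:**
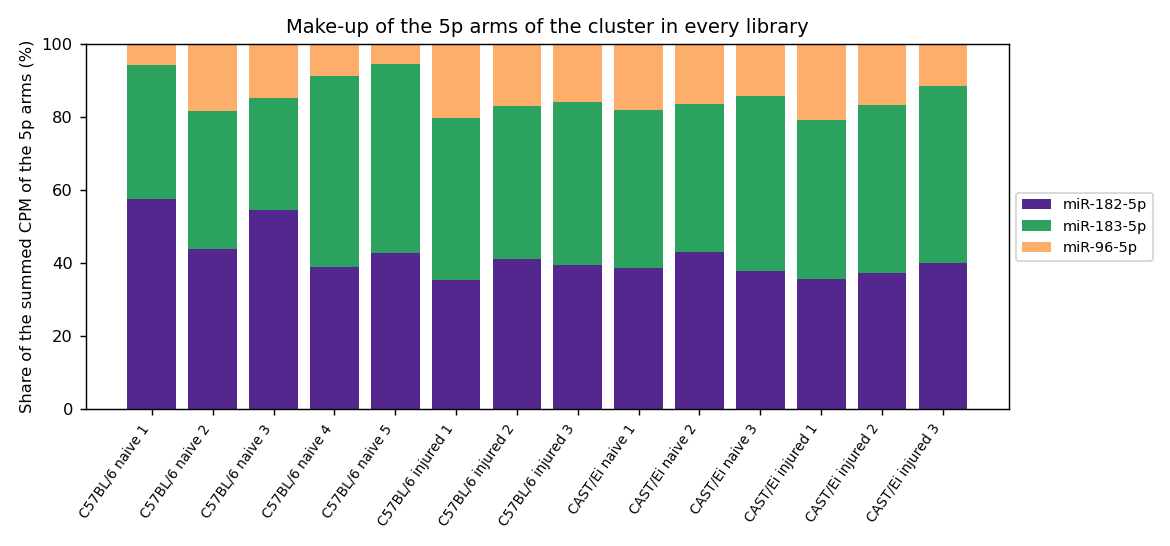
Share of miR-182-5p, miR-183-5p and miR-96-5p (stacked, bottom to top) in the summed CPM of the 3 arms, in percent, for each of the 14 libraries. miR-96-5p takes 5.38% to 18.2% in C57BL/6 naive libraries and 11.6% to 20.9% in the other 9, and miR-182-5p takes 57.6% and 54.5% in C57BL/6 naive libraries 1 and 3 against at most 43.9% in the others.

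Across the 14 libraries the members of the cluster did not all share a profile. Pearson's r of log2(CPM + 1) was 0.62 between miR-183-5p and miR-182-5p, −0.17 between miR-183-5p and miR-96-5p and −0.25 between miR-182-5p and miR-96-5p. Between the arms of a hairpin it was 0.48 for miR-183, 0.07 for miR-96 and −0.68 for miR-182. Without C57BL/6 naive libraries 4 and 5 (12 libraries) these values were 0.37, 0.29 and −0.07, and 0.49, 0.14 and −0.51. They are descriptions, and all points share the libraries' scaling and the 4 groups.

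Profiles of miRNAs outside the cluster were ranked by likeness to each 5p arm over the 14 libraries, with the cluster's own members left out. For miR-183-5p they were miR-664-3p (r = 0.95), miR-125b-5p (0.91), miR-122-5p (0.90), miR-125a-5p (0.89) and miR-1843a-3p (0.87). Without libraries 4 and 5 the first 3 of these had r of 0.82, 0.63 and 0.49. The closest profile was then that of miR-9-3p, of the neuronal list (r = 0.86, against −0.30 over the 14 libraries). For miR-182-5p they were the muscle miRNA miR-206-3p (0.81), miR-6481 (0.76), miR-92b-3p (0.75), miR-335-3p (0.74) and miR-1843a-3p (0.73). Without libraries 4 and 5 these had r of 0.74, 0.72, 0.63, 0.62 and 0.64, and miR-6516-5p was closest (0.78, against 0.48 over the 14 libraries).

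For miR-96-5p they were the fibroblast miRNAs miR-199b-5p (r = 0.84) and miR-199a-5p (0.80), the glial miR-3065-5p (0.75), miR-374c-3p (0.74) and miR-16-2-3p (0.73). Without libraries 4 and 5 miR-199b-5p had r = 0.89 and miR-3065-5p 0.79, so these did not rest on the libraries that stood apart. The fibroblast list summed to 2470 to 5084 CPM in C57BL/6 naive and 2805 to 3743 CPM in the other libraries, with none of its 5 members at 0 in any library. This sum did not follow miR-96-5p throughout. It was highest in C57BL/6 naive library 5, where miR-96-5p was low (1860 CPM). It was lowest in C57BL/6 naive library 1, which also had the lowest miR-96-5p (1232 CPM). The part of fibroblasts in the level of miR-96-5p was not tested.

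In summed CPM, markers of other cell types also differed between naive and injured ganglia. The 2 endothelial miRNAs summed to 11212 to 16081 CPM in naive and 18408 to 20895 CPM in injured C57BL/6 ganglia. In CAST/Ei the summed levels of 8 skeletal muscle miRNAs (10037 to 12749 naive, 7125 to 8250 CPM injured), 5 erythrocyte miRNAs (9682 to 13468 naive, 7680 to 9173 CPM injured) and the glial list given above did not overlap between the groups either. Relative to the CPM totals of the libraries, each of these CAST/Ei sums did overlap. For muscle, naive library 3 had 10037 of 1143936 CPM and injured library 2 had 8250 of 867581 CPM. The leukocyte, mural cell, fibroblast, epithelial and liver sums overlapped in both strains.

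By single miRNAs, 2 of the 7 skeletal muscle miRNAs tested fell in C57BL/6 after injury, miR-133a-3p (log2 −1.03, limma adjusted p = 0.0288) and miR-206-3p (−1.58, adjusted p = 0.0215). Of 7 leukocyte miRNAs 1 rose, miR-511-3p (1.47, limma adjusted p = 0.0054). Over all 638 miRNAs limma called 20 there (3.13%), 15 higher and 5 lower. None of the 8 glial, 7 epithelial, 5 fibroblast, 5 erythrocyte, 4 mural, 2 endothelial and 1 liver miRNAs tested passed there, nor did any miRNA of these 9 lists in CAST/Ei, where 7 of 638 passed. At 0 in some library were 1 leukocyte and 1 skeletal muscle miRNA. The part of these cells in the cluster's values was not tested.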

How the data were processed

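Small RNA of mouse DRG was measured in 14 libraries (RNA by the miRVana kit, Ion Total RNA-Seq libraries, per the labels' protocols). Reads were aligned with Bowtie2, per the submitters' processing notes. Its version, the counter, the build and the miRNA annotation were not given in the sources used here. Each deposited file holds a signal per mature miRNA, called CPM by the authors. The totals differ between libraries, from 867581 to 1311857, so it is CPM on scaled library sizes. In every library 100% of values were whole multiples of 1 read (tolerance 1e-06), which gave the reads. In C57BL/6 injured library 1 a read is worth 0.0996 CPM, so near 0.1 that steps of 1 read and decimal steps are harder to tell apart, and the count tests were also run without it. Coordinates and sequences come from RefSeq (GRCm38.p6) and GENCODE vM21, matched by name (918 of 1123 miRNAs).

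limma-trend (R 4.3.3, limma 3.58.1) was fitted to log2(CPM + 1) of the 638 miRNAs that reached 5 CPM in 3 or more libraries, with 4 group means over all 14 libraries and Benjamini-Hochberg adjustment within each contrast at 0.05. A fold change on this scale understates change of scarce miRNAs. The plan assumed plain CPM, and the same test was kept. edgeR 4.0.16 and DESeq2 1.42.0 on the recovered reads, other scalings, filters, pseudocounts and left-out libraries were alternatives. Ratios were tested by exact permutation (Python 3.11.15), within strains for averages. Scripts were tested on simulated data. The design text calls libraries biological replicates. No 2 libraries of a group were alike (lowest chi-square per degree of freedom 57.8).

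The members, lists and tests were chosen with earlier results of these data known. The text names the 6 arms, the 5 miRNAs most correlated with each 5p arm, and members of the neuronal, DRG pain model and cell type lists (from general knowledge) that passed, with miR-124-3p and miR-138-5p. The floor of 3 reads is 0.202 to 0.760 CPM per library. The exact intervals of the 3p shares cover counting error only, since there are no molecular identifiers. The limma intervals rest on the spread between libraries. Replicate numbers are shared between groups, but the labels tie no animals. Deviations from group means of same-numbered libraries had correlations of 0.114, 0.104 and 0.108 between the naive groups, where the numbers were used as pairs. In the other comparisons made the correlations were not all over 0.1 (−0.194 to 0.312). C57BL/6 naive library 3 and CAST/Ei naive library 2, with unlike numbers, had 0.129, so the correlations do not show that the numbers pair animals.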

Additional observations from a re-analysis of the deposited data

How the results depend on the processing

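Counts of arms past the threshold stayed at 0 of 6 for every comparison and alternative run, except for injury in C57BL/6 and injury averaged over strains, where DESeq2 on the recovered reads gave 1 and leaving out single libraries gave 0 to 1 (1 without C57BL/6 naive library 2). No ratio passed under any alternative, but some of these tests could not pass whatever the data. This holds for tests of 3 against 3 libraries, with a smallest possible p of 0.1, and for all ratio tests with the replicate block. The counts over all 638 miRNAs moved by more than 1.5 times, for injury in C57BL/6 from 20 (15 higher, 5 lower) to between 3 (only the groups compared in the model) and 79 (DESeq2, 21 higher and 58 lower). It was 70 without C57BL/6 naive library 3, 6 to 7 without an injured library, and 16 (15 higher, 1 lower) under the plain total. The naive strain count of 71 (38 higher, 33 lower) was 148 without C57BL/6 naive library 3, 33 to 45 without a CAST/Ei naive library and 58 (20 higher, 38 lower) under the plain total. With the replicate block, which leaves out C57BL/6 naive libraries 4 and 5, they were 37 for C57BL/6, 21 for CAST/Ei (7 without it) and 59 averaged over strains (27 without it), and the block changed no call of a member. In the injury comparisons the numbers do not pair the libraries. Scaling to the plain total moved the median change of all miRNAs after injury from −0.09 to 0.15 in CAST/Ei and from 0.01 to 0.20 on average. Beside these, miR-182-5p had −0.20 in CAST/Ei and −0.38 on average under that scaling.

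Strain comparisons also changed sign over the alternatives, none past the threshold, and are not listed in full. In naive ganglia miR-183-5p ran from −0.34 to 0.37 and miR-183-3p from −0.23 to 0.14. The strain difference in the injury effect ran from −0.44 to 0.33 for miR-183-5p and from −0.28 to 0.18 for miR-183-3p. Of the injury changes, the following changed sign, none past the threshold on either side, and the cause was not tested. miR-183-5p in C57BL/6 was 0.13 with the block and 0.13 without libraries 4 and 5, and in CAST/Ei 0.034 under quantile normalization. miR-183-3p in CAST/Ei was 0.014 under the plain total, and in C57BL/6 it was −0.27 to 0.012 with single libraries left out. miR-96-3p in C57BL/6 was −0.074 with edgeR and −0.052 with DESeq2 on 13 libraries, alternatives added after the data were seen. Averaged over strains it was 0.094 under the plain total, 0.045 without the 3 most abundant miRNAs in the total, and −0.30 to 0.0014 with single libraries left out. miR-182-3p in CAST/Ei was 0.084 and 0.059 under those scalings. miR-96-5p on average was −0.034 with edgeR, −0.061 with edgeR and −0.028 with DESeq2 on 13 libraries, and −0.074 to 0.15 with single libraries left out.

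Ratios changed sign in strain comparisons too, such as miR-96-5p to miR-96-3p in naive ganglia (−0.28 to 0.42). Among the injury differences of ratios, that of miR-183-5p to miR-183-3p was 0.20 in C57BL/6 and 0.072 on average with the replicate block. It was the same without libraries 4 and 5. With single libraries left out it was −0.35 to 0.099 in C57BL/6, −0.15 to 0.047 in CAST/Ei and −0.21 to 0.021 on average. The ratio of miR-96-5p to miR-96-3p was −0.030 to 0.54, −0.28 to 0.43 and −0.0062 to 0.35 in the same order. In CAST/Ei that of miR-96-5p to miR-182-5p was −0.18 to 0.33 and to miR-183-5p −0.33 to 0.17. Depth limits miR-182-3p most, with 38 to 218 reads a library.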
